A study of Mus musculus with 18 samples.

Results

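Tmem163 and 8 genes of the Slc30a family of zinc transporters (Slc30a1, Slc30a3, Slc30a4, Slc30a5, Slc30a6, Slc30a7, Slc30a9 and Slc30a10) are described here, 9 of the 24062 lines of a table of RNA sequencing counts. They were taken by gene symbol. The set was chosen by the measured level of Tmem163, which was about 9-fold lower in the hippocampus of mice with 1 mutated copy of the chromatin remodeller Chd2 and not in their embryonic tissues, so the genotype values of Tmem163 are a description and carry no test. The 18 libraries came from C57BL/6 mice, either wild type (WT) or heterozygous for Chd2 (HET), with 3 libraries in each of 6 groups. Embryos at E13.5 gave the medial ganglionic eminence (MGE, from which many forebrain interneurons arise) and the cortex, and mice at P45 gave the hippocampus. The sources used here do not give the nature of the Chd2 mutation, any Cre line, the sex of the animals or whether replicates came from separate animals. A p-value therefore covers the spread between libraries, which in MGE and hippocampus may be technical only.

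Neurons of the hippocampus, above all the granule cells whose mossy fibres reach CA3, store zinc in synaptic vesicles and release it together with glutamate. Most Slc30a proteins move zinc out of the cytosol, either across the plasma membrane or into vesicles and organelles. Slc39a proteins bring it into the cytosol and metallothioneins bind it there. Tmem163, also called SV31, is a zinc-binding membrane protein found on synaptic vesicles and belongs to the same wider family of cation transporters as Slc30a proteins. Slc30a3 loads zinc into the synaptic vesicles of glutamatergic neurons, and Slc30a1 exports zinc across the plasma membrane. Zinc raises Slc30a1 and metallothionein transcription through the factor Mtf1, which binds metal response elements.

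The stretch before a transcription start was read for all 9 genes from RefSeq (GRCm38.p6). There were 10 windows of 250 bases, as Slc30a3 has a pair of starts. For Slc30a1, Slc30a5, Slc30a6 and Slc30a7 the RefSeq gene record begins before the window ends, so part of the window lies within the record. The second Slc30a3 window lies wholly within the record of that gene, with 88 of its bases in a GENCODE exon. Each window was searched on both strands for the core of the metal response element, written as TGCACNC or TGCGCNC. These forms differ at 1 base and cannot match the same bases on the same strand, while matches on opposite strands can overlap. At least 1 match lay in 5 of the 10 windows, which belong to 5 of the 9 genes, against 21.4% of 32851 RefSeq windows of the same length and 23.8% of 27025 genes. The 10 windows were richer in GC than the median RefSeq window (53.2 to 82.8% against 52.4%) and in CpG (8 to 40 against 6), and TGCGCNC itself holds a CpG. The part of base composition in the number of matches was not tested. The window of Tmem163 (chr1:127678022-127678271, minus strand) held 0 matches. It lies within an exon of a longer Tmem163 transcript in GENCODE M21, so its letters are not shown. Those of Slc30a1, Slc30a3 and Slc30a10 are shown with each match in capitals, because the first is the plasma membrane exporter that Mtf1 is known to act on, the second the vesicular transporter of the hippocampus, and the third the family member whose MGE values separated by genotype. For Slc30a1 only the 236 bases ahead of its first GENCODE exon are shown. A match describes the letters only.
Slc30a1 (chr1:191906531-191906766, plus strand): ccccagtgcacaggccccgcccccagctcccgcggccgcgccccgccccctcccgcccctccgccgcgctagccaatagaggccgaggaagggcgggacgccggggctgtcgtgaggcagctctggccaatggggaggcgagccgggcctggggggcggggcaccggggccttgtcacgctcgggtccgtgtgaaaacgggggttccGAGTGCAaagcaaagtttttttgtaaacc
Slc30a3 (chr5:31108245-31108494, minus strand): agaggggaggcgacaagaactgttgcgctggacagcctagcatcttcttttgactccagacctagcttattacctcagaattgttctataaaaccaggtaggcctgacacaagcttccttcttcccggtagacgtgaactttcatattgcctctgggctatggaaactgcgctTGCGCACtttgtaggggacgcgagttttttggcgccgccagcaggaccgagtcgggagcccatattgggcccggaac
Slc30a10 (chr1:185454598-185454847, plus strand): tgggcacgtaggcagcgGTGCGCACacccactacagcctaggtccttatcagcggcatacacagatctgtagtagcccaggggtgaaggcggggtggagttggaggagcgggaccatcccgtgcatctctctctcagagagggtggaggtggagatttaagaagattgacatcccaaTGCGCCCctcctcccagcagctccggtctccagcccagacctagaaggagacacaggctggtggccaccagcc
Relative to the RefSeq start that follows each window, the match of Slc30a1 began at position -43 (TGCACNC on the opposite strand). That of Slc30a3 began at -77 (TGCGCNC on the gene's strand). Slc30a10 had 3 matches to TGCGCNC, which began at -233, -232 and -73. The first of them lies on the opposite strand and overlaps the second, so the capitals show them as 1 run. Slc30a4 had 2 matches and Slc30a5 had 1. The matches of Slc30a1 and Slc30a5 lie in the part of the window that is within the RefSeq gene record. Slc30a6, Slc30a7, Slc30a9 and the second Slc30a3 window had 0.

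Library totals ran from 26841671 to 38802765 counts. Levels are given as TMM-scaled library-size-normalised counts (CPM), with the SD over 3 libraries. Chd2 itself was lower in every HET library than in the WT libraries of its tissue, though it was called in no tissue (MGE means of 163 in WT against 140.0 CPM, cortex 148 against 125 CPM, hippocampus 73.8 against 65.3 CPM, log2 fold changes -0.24, -0.22 and -0.17, edgeR adjusted p 0.980, 0.578 and 0.191). Summed lists of MGE and hippocampus markers were highest where the labels place them. Nkx2-1, Lhx6, Lhx8 and Dlx2 summed to 1827 to 2373 CPM in MGE and at most 33.6 CPM elsewhere, and Camk2a, Prox1, Mbp and Neurod6 to at least 9220 CPM in hippocampus and at most 1253 CPM elsewhere. The cortex libraries were less alike. Emx1, Neurod6, Tbr1 and Eomes summed to 1745, 1895 and 2023 CPM in WT cortex and 1251, 1213 and 1857 CPM in HET cortex. Choroid plexus markers summed to 1610, 5.98 and 1243 CPM in WT cortex and 13.9, 269 and 449 CPM in HET cortex. The part of these differences in the cortex genotype values was not tested. The female-specific RNA Xist stood at 1737 CPM or more in the 3 WT MGE libraries and at 1.08 CPM or less in the 3 HET ones, so genotype and this sex marker cannot be told apart in MGE. It was high in the 6 hippocampus libraries (518 to 672 CPM) and split the cortex libraries, with 0.965, 1266 and 1298 CPM in WT and 1.05, 1305 and 1.23 CPM in HET. The cortex libraries of a genotype thus did not all come from the same animal.

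Tmem163 lies on the minus strand of chromosome 1 (chr1:127486546-127679548, mm10, ENSMUSG00000026347.13), where GENCODE M21 gives it 5 transcripts. In WT hippocampus it stood at 103, 124 and 110.3 CPM (112 ± 10.9 CPM, SD, n = 3), from 3004 to 3826 counts. In HET hippocampus it stood at 13.3, 11.02 and 11.6 CPM (11.98 ± 1.16 CPM, SD, n = 3), from 323 to 373 counts. All 3 HET libraries lay far below all 3 WT libraries: the means differed 9.38-fold, and the lowest WT library was still 7.74-fold above the highest HET library. The log2 fold change was -3.23 (SE 0.09), and it ran from -3.31 to -3.14 over the other scalings, filters and tools and with each hippocampus library left out. In a bulk sample, fewer cells that express a gene and less RNA per cell cannot be told apart.

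In the embryonic tissues the Tmem163 values of the genotypes overlapped. The WT cortex libraries had 6.42, 8.91 and 7.29 CPM and the HET cortex libraries 5.78, 9.21 and 8.93 CPM (7.54 ± 1.26 and 7.97 ± 1.90 CPM, SD, n = 3 each). In MGE, with only 26 to 72 counts per library, the WT values were 1.83, 0.843 and 1.94 CPM and the HET values 2.00, 1.99 and 1.17 CPM (1.54 ± 0.606 and 1.72 ± 0.479 CPM, SD, n = 3 each). The log2 fold changes were 0.10 (SE 0.23) in cortex and 0.14 (SE 0.36) in MGE. Fitted over all 18 libraries, the log2 fold change of hippocampus minus that of cortex was -3.32 (SE 0.31), and minus that of MGE it was -3.36 (SE 0.35). These differences are what the gene was chosen for.

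The order of the groups for Tmem163 was WT hippocampus, HET hippocampus, cortex of both genotypes and MGE of both genotypes. Values overlapped between the genotypes of cortex and of MGE, and between no other neighbours in that order. WT hippocampus stood 14.9-fold above WT cortex and 73.0-fold above WT MGE, while HET hippocampus stood 1.502-fold above HET cortex and 6.97-fold above HET MGE. The HET hippocampus mean thus lay closer to embryonic cortex than to WT hippocampus. The comparison of MGE with cortex, both at E13.5, did not enter the choice of the gene, and there Tmem163 was lower in MGE. The log2 fold change was -2.27 (SE 0.23, edgeR adjusted p 1.69e-05) in WT and -2.22 (SE 0.25, edgeR adjusted p 6.91e-05) in HET libraries. Of all genes tested, 24.6% were called higher and 25.7% lower in MGE in WT, and 14.8% higher and 18.7% lower in HET libraries.

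**Figure D1:**
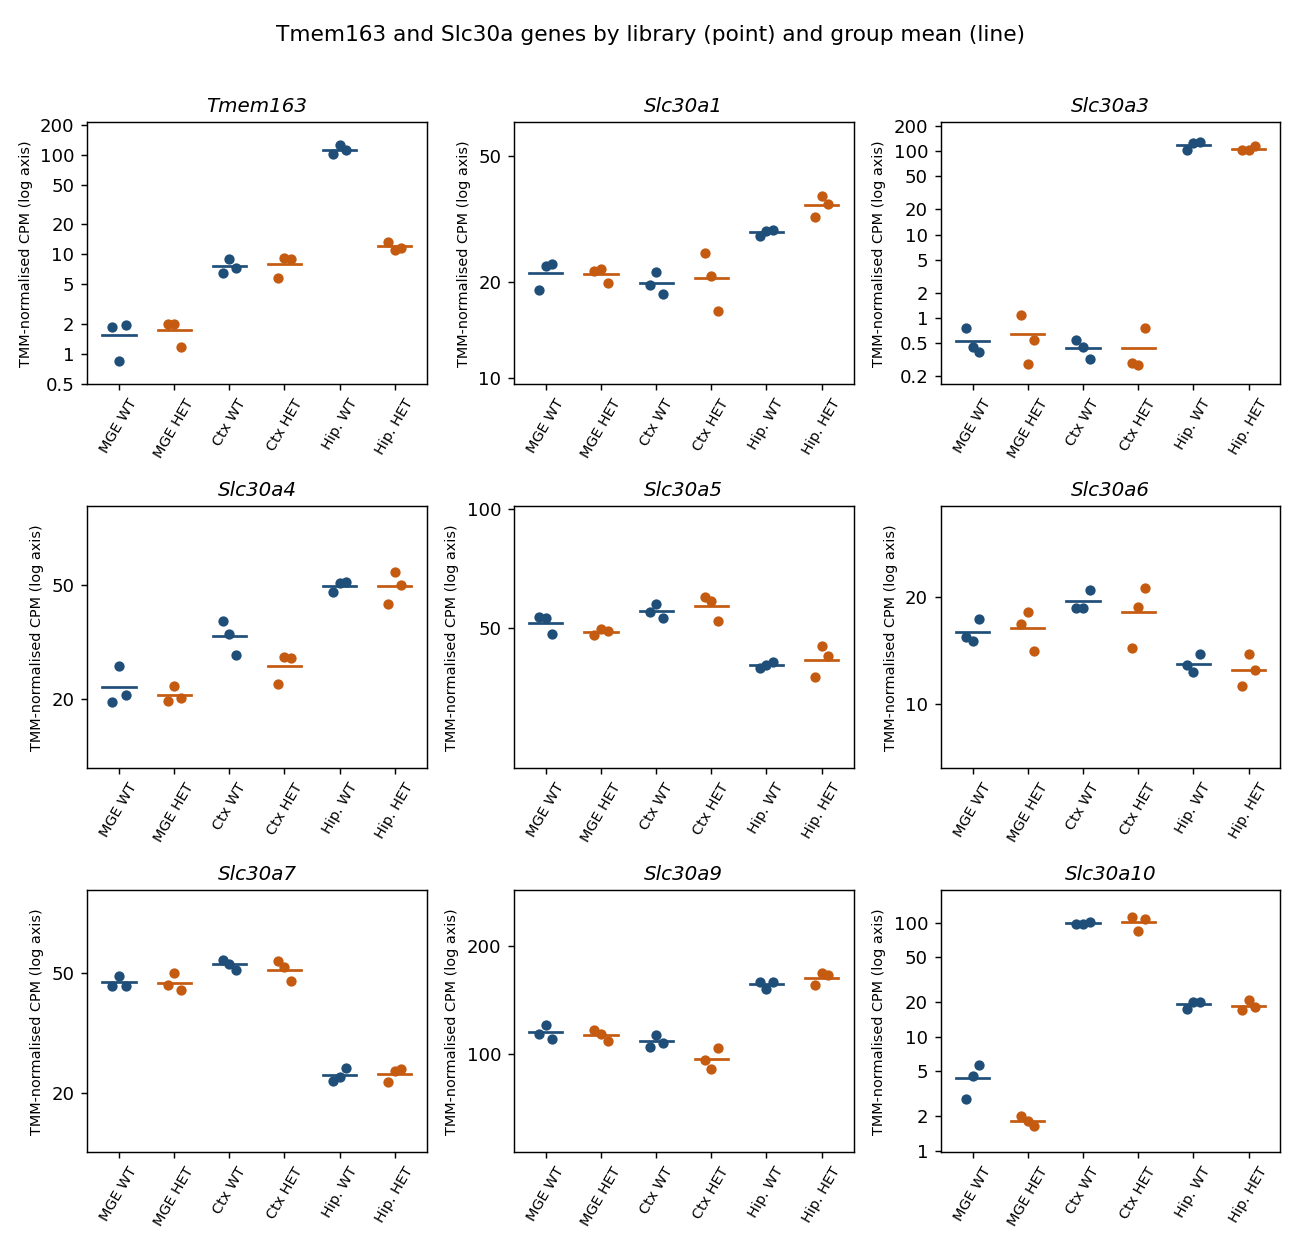
TMM-normalised CPM (log axis) of Tmem163 and the 8 Slc30a genes in each of the 18 libraries, with WT in blue, HET in orange, a point per library and a line at the group mean. Tmem163 separates by genotype in hippocampus only (103 to 124 against 11.02 to 13.3 CPM), Slc30a3 is near 0 in embryonic tissue, and Slc30a10 is highest in cortex.

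Levels were divided by the length of the gene's merged GENCODE exons to set genes side by side. The ranks depend on that length, as the annotation used for counting was not given. Slc30a3 led in WT hippocampus at 42.3 CPM per kb and Tmem163 was second at 26.2 CPM per kb. Slc30a9 followed at 12.6, Slc30a4 at 9.09 and Slc30a5 and Slc30a1 at 5.51 and 5.48 CPM per kb. Slc30a6, Slc30a10 and Slc30a7 stood at 4.23, 3.30 and 2.06 CPM per kb. In HET hippocampus Tmem163 stood at 2.79 CPM per kb, by its mean eighth of the 9 genes and above only Slc30a7 (2.08 CPM per kb). Its HET libraries (2.57 to 3.09 CPM per kb) overlapped those of Slc30a10 (2.92 to 3.57 CPM per kb). Slc30a3 stood there at 37.8 and Slc30a9 at 13.2 CPM per kb. In WT cortex Tmem163 was likewise eighth, at 1.76 CPM per kb, with Slc30a10 first at 16.8 CPM per kb.

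The genes beside Tmem163 on chromosome 1 differed far less between genotypes in hippocampus. Of the 5 annotated genes in the table on each side, 7 of 10 passed the filter on low counts in hippocampus, and edgeR, DESeq2 and limma-voom each called 0 of these 7. Of the 15283 genes tested there, edgeR called 1.07% (0.262% higher, 0.811% lower). DESeq2 and limma-voom called 445 and 115 genes in all there. The log2 fold changes of the 7 neighbours ran from -0.30 (Nckap5, SE 0.14) to 0.01 (Ccnt2, SE 0.06). Their median was -0.11, where the median of all genes was 0.00. At an unadjusted p under 0.05 the count was 2 of 7 with each tool, where edgeR gave 15.6% of all genes. These were Lypd1 (-0.26, SE 0.09) and Mgat5 (-0.18, SE 0.07). Lypd1, Nckap5 and Mgat5, which lie on the same side, were lower in every HET than in every WT hippocampus library. Lypd1 stood at 20.1 to 25.7 CPM in WT and 19.0 to 19.6 CPM in HET. Nckap5 stood at 6.49 to 7.83 and 5.09 to 5.97 CPM. Of all genes tested, 11.7% were lower and 9.11% higher in this way. The other tested neighbours overlapped. Slc35f5, Map3k19 and Rab3gap1 stood at -0.02, -0.11 and -0.05, and Gpr39, Acmsd and 2900009J06Rik were too low to test. Mgat5, which encodes an enzyme of N-glycan branching, shares 152 exon bases with Tmem163 on the opposite strand. Without a stated strand setting, reads in those bases cannot be assigned to either gene. Mgat5 stood at 38.6 to 42.2 CPM in WT and 33.8 to 36.7 CPM in HET hippocampus (edgeR adjusted p 0.233). The RefSeq record for Tmem163 lists, beside SV31, the synonyms A-cre, Act-Cre, actin-cre and Tg(ACTB-cre)2Mrt, which name a Cre transgene. The sources used here do not say whether such a transgene was present in any animal, and its part in the Tmem163 level was not tested.

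**Figure D2:**
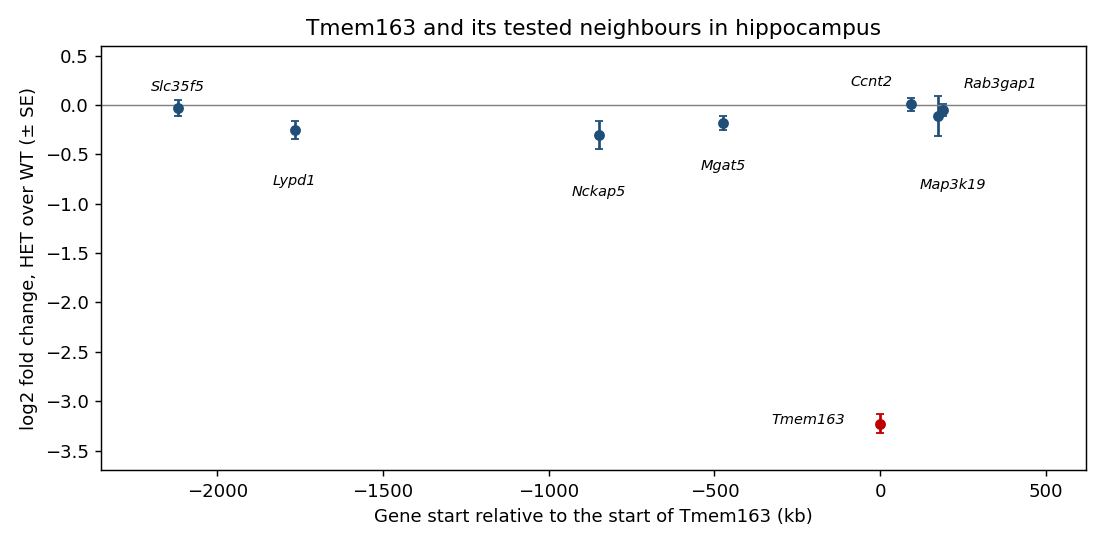
Log2 fold change of HET over WT in hippocampus (± SE) for Tmem163 (red) and its 7 tested neighbours (blue), plotted by the distance of each gene's start from that of Tmem163 in kb. Tmem163 is at -3.23 while the neighbours lie between -0.30 and 0.01.

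Markers of cell types and subfields were read beside the hippocampal difference, where edgeR called 0.262% of all genes higher and 0.811% lower. Of single genes tested there, 9.11% lay higher and 11.7% lower in HET without overlap. Such a share was not computed for summed lists. All 6 CA1 markers had log2 fold changes below 0 and 2 were called lower, Fibcd1 at -0.55 and Mpped1 at -0.39 (edgeR adjusted p 0.00482 and 0.0461). Their summed level was 889 to 1323 CPM in WT and 892 to 946 CPM in HET. All 7 endothelial markers were below 0, 2 of them called, Flt1 at -0.81 and Ly6c1 at -0.59 (edgeR adjusted p 2.19e-04 and 0.00907), and the list summed to 159 to 170.5 CPM in WT and 106 to 126 CPM in HET without overlap. DESeq2 called 3 CA1 and 4 endothelial markers, and limma-voom 1 and 2. In all, DESeq2 called 445 and limma-voom 115 genes there, beside 164 with edgeR. The dentate granule list summed to 612 to 953 CPM in WT and 779 to 811 CPM in HET, with 1 of 8 called, C1ql2, higher (0.44, edgeR adjusted p 0.0293). CA3 markers summed to 358 to 408 and 376 to 482 CPM and CA2 markers to 358 to 389 and 365 to 464 CPM in WT and HET. Subiculum markers summed to 335 to 387 CPM in WT and 299 to 307 CPM in HET, and thalamus markers to 73.0 to 89.0 and 95.5 to 110.5 CPM, both without overlap and with 0 called. Striatum markers summed to 24.9 to 28.4 and 21.3 to 24.7 CPM, also without overlap and with 0 called. Habenula markers overlapped at 58.4 to 60.1 CPM in WT and 58.8 to 65.2 CPM in HET. Of these Lrrc55 was called higher (0.60, edgeR adjusted p 0.0167), and Pou4f1 had no counts in HET. Astrocyte, oligodendrocyte, microglia and interneuron lists overlapped between genotypes and had 0 called. The part of any of these in the Tmem163 level was not tested.

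The 5 named genes whose log2 CPM followed Tmem163 most closely over all 18 libraries were Nostrin, P4ha1, Itga4, Klf2 and N4bp3 (Pearson r 0.946, 0.938, 0.924, 0.917 and 0.915). These points share tissue and age, which set most of the spread. Over the 6 hippocampus libraries, which fall into a WT and a HET cluster, the closest were Flt1, Oplah, Sirpa, Fgfr3 and Sez6l (r 0.997 to 0.991). Their own differences were much smaller than that of Tmem163: Flt1, a VEGF receptor of endothelial cells, had means of 37.4 and 21.3 CPM in WT and HET, and Fgfr3, a fibroblast growth factor receptor, 152 and 112 CPM. Sirpa, Sez6l and Oplah had means of 404 and 332, 507 and 401, and 39.8 and 31.9 CPM. Among the Slc30a genes the highest r over all libraries was 0.819, for Slc30a4. Over the hippocampus libraries it was 0.590, for Slc30a3, and the lowest was -0.91, for Slc30a1.

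Within each tissue, the 8 Slc30a genes were then tested for a genotype difference. With edgeR, 0 of 8 were called in MGE, 0 of 8 in cortex and 0 of 8 in hippocampus, where 0.0479% (0.0342% higher, 0.0137% lower), 0% and 1.07% of all genes were called. At an unadjusted p under 0.05 there were 1 (Slc30a10), 0 and 1 (Slc30a1), against 4.51%, 7.89% and 15.6% of all genes. DESeq2 called 1 (Slc30a10), 0 and 0, where it called 33, 11 and 445 genes in all. The limma-voom fits called 0 in each tissue, where they called 7, 0 and 115 genes in all. The median log2 fold change of the 8 genes was -0.03 in MGE, -0.01 in cortex and 0.01 in hippocampus, beside 0.01, 0.01 and 0.00 for all genes tested. WT and HET values did not overlap for 1 gene in MGE, 2 in cortex and 1 in hippocampus, where 10.3%, 11% and 20.8% of all genes did not overlap.

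**Figure D3:**
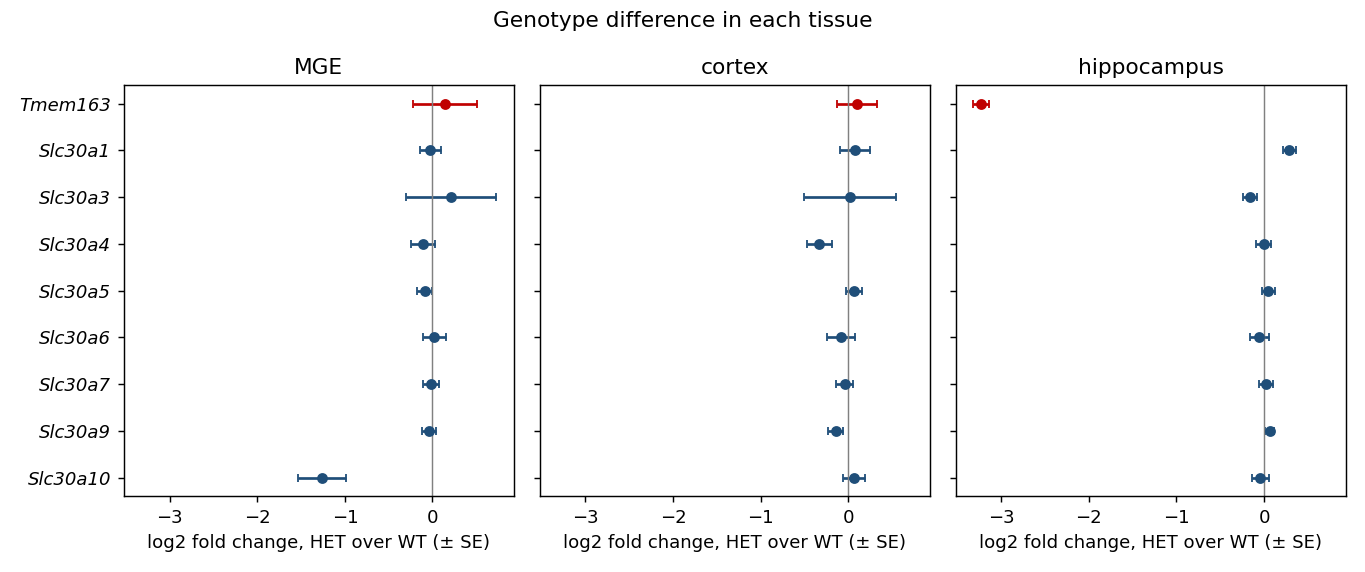
Log2 fold change of HET over WT (± SE) of Tmem163 (red) and the 8 Slc30a genes (blue) in MGE, cortex and hippocampus. Tmem163 in hippocampus (-3.23) and Slc30a10 in MGE (-1.26) lie farthest from 0, and no other gene exceeds 0.33 in size.

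Slc30a3, the vesicular zinc transporter (chr5:31086106-31108237, minus strand), is the family member whose known place is closest to that of Tmem163. The WT hippocampus libraries had 104, 126 and 130.5 CPM and the HET ones 102, 105 and 114 CPM (120.0 ± 14.1 and 107 ± 6.50 CPM, SD, n = 3 each). The ranges overlapped, with a log2 fold change of -0.16 (SE 0.08, edgeR adjusted p 0.359). In the embryonic tissues it was close to undetected, with 8 to 39 counts per library and at most 1.08 CPM. The hippocampus stood 273-fold above cortex in WT and 244-fold in HET. Slc30a3 and Tmem163 thus were both far higher in WT hippocampus than in embryonic tissue, and of the pair only Tmem163 separated there by genotype.

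Slc30a1, the plasma membrane exporter (chr1:191906767-191913247, plus strand), had the lowest p of the Slc30a genes in hippocampus. Its WT libraries had 27.9, 29.01 and 29.2 CPM and its HET libraries 32.1, 37.5 and 35.2 CPM there (28.7 ± 0.711 and 34.9 ± 2.71 CPM, SD, n = 3 each). All HET libraries lay above all WT libraries, as 9.11% of genes did, with 11.7% below. The log2 fold change was 0.29 (SE 0.08), with an edgeR adjusted p of 0.0978 that ran from 0.0609 to 0.929 over the alternatives and passed 0.05 in 0 of them. In cortex and MGE the values overlapped, with log2 fold changes of 0.07 (SE 0.17) and -0.03 (SE 0.12). The opposite-strand gene 1700034H15Rik shares 468 exon bases with Slc30a1 and stood at 1.07 to 2.496 CPM in WT and 1.62 to 1.67 CPM in HET hippocampus.

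Slc30a10, a plasma membrane transporter best known for exporting manganese (chr1:185454848-185468762, plus strand), had the largest change of the family in MGE. The WT MGE libraries had 2.85, 4.51 and 5.67 CPM and the HET ones 2.00, 1.82 and 1.65 CPM (4.34 ± 1.41 and 1.83 ± 0.172 CPM, SD, n = 3 each), from 61 to 175 counts. All 3 HET libraries lay below all 3 WT libraries, as 5.12% of genes did, with 5.13% above. The log2 fold change was -1.26 (SE 0.28, edgeR adjusted p 0.737, unadjusted p 9.08e-04). The call depended on the tool and on 1 library: DESeq2 gave an adjusted p of 0.0304, edgeR with all 18 libraries in one fit 0.037, and edgeR without WT MGE 1 gave -1.49 with an adjusted p of 0.0406. The one fit called 5 genes for genotype in MGE, and 0 of these were among the 7 of the main fit. The lincRNA Gm2061, on the opposite strand, shares 533 exon bases with Slc30a10 and had 3 to 20 counts in these libraries. Because Slc30a10 is high in cortex, the summed level of the cortex markers Emx1, Neurod6, Tbr1 and Eomes was read beside it. The sums were 2.45, 6.42 and 9.36 CPM in WT and 8.33, 2.11 and 1.14 CPM in HET MGE, against 1213 CPM or more in each cortex library. Their part in the MGE values of Slc30a10 was not tested. In cortex and hippocampus the Slc30a10 values of the genotypes overlapped, with log2 fold changes of 0.06 (SE 0.12) and -0.04 (SE 0.10).

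Slc30a4, which fills endosomal and secretory vesicles with zinc (chr2:122681233-122702663, minus strand), and Slc30a9, a zinc transporter of mitochondria (chr5:67306955-67358443, plus strand), were the members whose cortex values did not overlap. Slc30a4 had 37.5, 33.7 and 28.5 CPM in the WT libraries against 22.6, 28.04 and 27.7 CPM in the HET libraries. The lowest WT and the highest HET library nearly met, and the log2 fold change was -0.33 (SE 0.15, edgeR adjusted p 0.578). Slc30a9 had 105, 113 and 107 CPM in the WT libraries against 95.9, 90.4 and 104 CPM in the HET libraries, with a log2 fold change of -0.14 (SE 0.09, edgeR adjusted p 0.579). Both genes were lower in all 3 HET libraries, as 6.29% of genes were, with 4.69% higher. Without HET cortex 3, Slc30a9 was called at -0.19 (edgeR adjusted p 0.0489), in a fit that called 4598 genes in all. The cortex markers Emx1, Neurod6, Tbr1 and Eomes summed to 1857 CPM in HET cortex 3, against 1251 and 1213 CPM in HET cortex 1 and 2. Their part in these values was not tested. In hippocampus Slc30a4 stood at 47.3 to 51.4 CPM in WT and 43.1 to 55.5 CPM in HET, and Slc30a9 at 152 to 159 and 155 to 168 CPM.

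The transporters of the early secretory pathway, Slc30a5 and Slc30a6, which work as a heterodimer (chr13:100802648-100833427, minus strand, and chr17:74395608-74424221, plus strand), and Slc30a7 (chr3:115938973-116007406, minus strand), showed overlapping genotype values in all 3 tissues. Their log2 fold changes lay between -0.09 and 0.06, with SE between 0.07 and 0.16. Slc30a5 had WT means of 51.5 CPM in MGE, 55.1 CPM in cortex and 40.2 CPM in hippocampus, against HET means of 48.9, 56.9 and 41.5 CPM. Slc30a7 had 46.5, 53.3 and 22.9 CPM against 46.4, 51.3 and 23.2 CPM. Slc30a6 had 15.9, 19.4 and 12.996 CPM against 16.3, 18.1 and 12.5 CPM. GENCODE places 2 processed pseudogenes on the opposite strand of Slc30a7 exons (1165 and 637 shared bases), and the sources used here do not say how reads there were counted.

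Whether the genotype effect differed between tissues was tested directly. With edgeR, 0 of the 8 Slc30a genes were called for hippocampus against cortex and 0 of 8 for hippocampus against MGE, where 0.0124% and 0.0062% of genes were called. At an unadjusted p under 0.05 the counts were 0 and 1 (Slc30a10), against 12.8% and 7.36% of all genes. DESeq2 called 0 and 1, where it called 77 and 38 genes in all. The limma-voom fit called 0 and 0, where it called 2 and 3 genes in all. Slc30a10 had the largest difference, 1.21 (SE 0.26, edgeR adjusted p 0.362) for hippocampus against MGE. It was called by DESeq2 (adjusted p 0.00903) and by edgeR without WT MGE 1 (1.45, adjusted p 0.00603). Slc30a9 had 0.22 (SE 0.10, edgeR adjusted p 0.390) for hippocampus against cortex, and 0.30 (adjusted p 0.0365) without HET cortex 3. Slc30a1 had 0.22 (SE 0.18) against cortex and 0.31 (SE 0.18) against MGE.

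Between tissues the Slc30a genes, like most genes tested, differed more often than between genotypes. Tissue and age change together when hippocampus is compared with an embryonic tissue, so their effects cannot be told apart. In WT libraries all 8 genes were called between hippocampus and cortex with edgeR, 4 higher and 4 lower, where 80.9% of all genes were called (40.2% higher, 40.7% lower). Slc30a3 was higher by 8.12 on the log2 scale (SE 0.19, adjusted p 4.16e-12). Slc30a4, Slc30a1 and Slc30a9 were higher by 0.64, 0.59 and 0.59. Lower in hippocampus were Slc30a10 at -2.29 (SE 0.17, adjusted p 1.49e-07), Slc30a7 at -1.16, Slc30a6 at -0.52 and Slc30a5 at -0.40. The split between higher and lower was near that of all genes. HET libraries gave the same directions for all 8, each called, where 78.8% of genes were called (38.6% higher, 40.2% lower), with Slc30a3 at 7.90 and Slc30a10 at -2.42. There Slc30a6 (-0.51, adjusted p 0.0161) was no longer called without HET hippocampus 1 (adjusted p 0.0605).

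Against MGE, edgeR called 7 of 8 in WT hippocampus (5 higher, 2 lower), where 82.3% of genes were called (42.2% higher, 40.1% lower). Slc30a3, Slc30a10 and Slc30a4 were higher by 7.81 (SE 0.18), 2.22 (SE 0.18) and 1.23 (SE 0.13), Slc30a9 and Slc30a1 by 0.50 and 0.48. Slc30a7 and Slc30a5 were lower at -0.97 and -0.31, and Slc30a6 at -0.24 had an adjusted p of 0.0525, which passed the threshold in the fit of these tissues alone (0.0314). In HET libraries 6 of 8 were called (5 higher and Slc30a7 lower), where 80.1% of genes were called (40.6% higher, 39.5% lower). Slc30a10 had 3.39 (SE 0.16) there. Slc30a5 (-0.20) and Slc30a6 (-0.35) had edgeR adjusted p of 0.0972 and 0.0742. Both were called lower in the fit of these tissues alone (0.0405 and 0.0244) and without HET cortex 3 (0.0255 and 0.0298). Slc30a6 was also called without HET MGE 3 (0.0461) and without HET cortex 1 (0.0418).

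Between the embryonic tissues of equal age, Slc30a10 marked the cortex. The WT cortex libraries had 96.9, 96.4 and 101.5 CPM and the HET ones 112, 83.9 and 108 CPM, 22.6-fold above WT MGE and 55.6-fold above HET MGE. In hippocampus it stood at 17.6 to 20.2 CPM in WT and 17.04 to 20.8 CPM in HET. The log2 fold change of MGE over cortex was -4.51 (SE 0.19, edgeR adjusted p 2.73e-08) in WT and -5.81 (SE 0.17, edgeR adjusted p 3.62e-09) in HET. In WT, edgeR called 3 of 8 Slc30a genes, all lower in MGE, where 50.4% of genes were called. The others were Slc30a4 (-0.59, adjusted p 0.00281) and Slc30a6 (-0.28, adjusted p 0.0423), and the call of Slc30a6 was lost under RLE scaling (adjusted p 0.0658), with no filter (adjusted p 0.0634), with DESeq2 (adjusted p 0.0607), in the fit of these tissues alone (adjusted p 0.0633) and without WT MGE 1 or 2, WT cortex 1, 2 or 3, or WT hippocampus 2 (adjusted p 0.05 to 0.133). Slc30a7 (-0.19, edgeR adjusted p 0.0517) gained a call with limma-voom (adjusted p 0.0356). It also gained one without WT MGE 2, WT cortex 3, or WT hippocampus 1 or 3 (edgeR adjusted p 0.0296 to 0.049). In HET, 1 of 8 was called, Slc30a10, where 33.5% of genes were called. Slc30a4 had -0.35 (SE 0.13, adjusted p 0.0639) there.

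**Figure D4:**
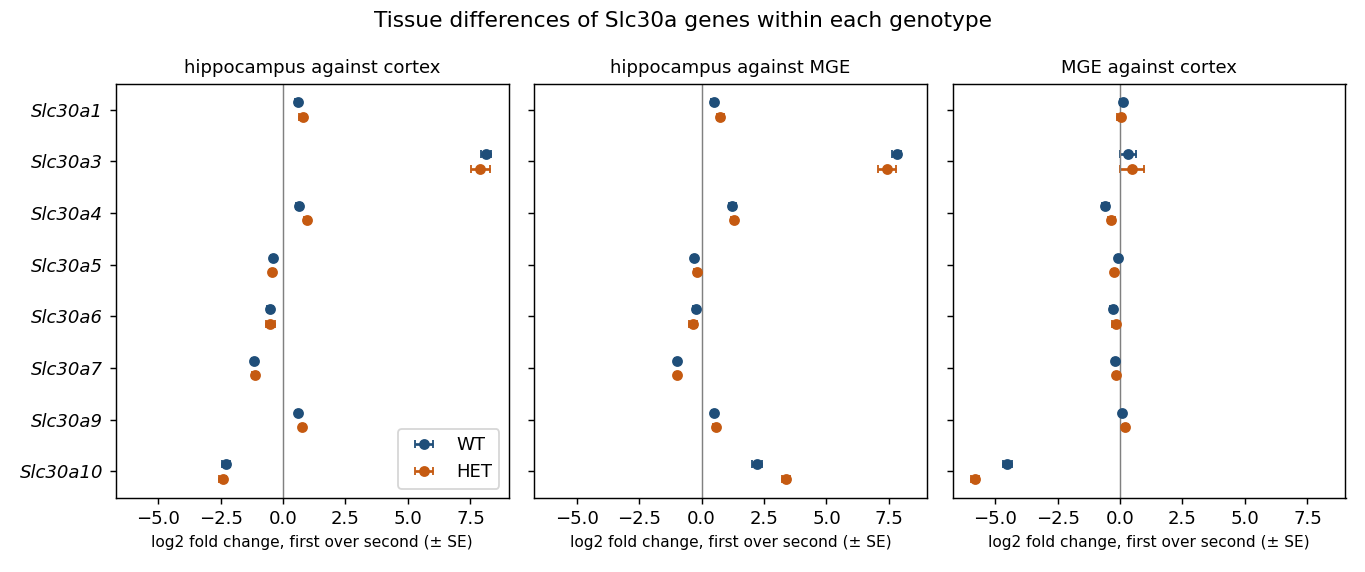
Log2 fold changes (± SE) of the 8 Slc30a genes between tissues in WT (blue) and HET (orange) libraries, each panel giving the first tissue over the second. Slc30a3 lies near 8 for hippocampus over either embryonic tissue, and Slc30a10 is lower in MGE than in cortex by 4.51 in WT and 5.81 in HET.

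The remaining family members in the table were low. Slc30a2, a vesicular transporter, stood at 4.17, 4.71 and 5.31 CPM in WT and 3.59, 3.68 and 4.42 CPM in HET hippocampus (log2 fold change -0.27, SE 0.17, edgeR adjusted p 0.460), and had at most 8 counts in an embryonic library. Slc30a8, known from insulin granules, had 0 to 4 counts in every library.

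Other genes of zinc handling were read from lists of 14 Slc39a importers, of metallothioneins with Mtf1, Slc30a2 and Slc30a8, and of 13 genes of the AP-3 sorting complex, vesicular channels and transporters and P2X receptors. In hippocampus edgeR called 0 of 14, 0 of 5 and 0 of 13 tested genes of these lists between genotypes, against 1.07% of all genes. At an unadjusted p under 0.05 there were 3, 1 and 3, against 15.6% of all genes. DESeq2 called 1, 0 and 0 and limma-voom 0, 0 and 0, where they called 445 and 115 genes in all. The lowest adjusted p was that of Slc39a6, an importer, at 0.0550. The WT libraries had 62.4, 68.4 and 71.03 CPM and the HET ones 81.03, 78.3 and 84.9 CPM, without overlap (log2 fold change 0.28, SE 0.06). Slc39a11 also lay higher in HET hippocampus without overlap, and Slc39a2 and Slc39a3 lay lower. Of all genes tested there, 9.11% lay higher and 11.7% lower in this way. The other importers named for their mean CPM, Slc39a10, Slc39a7 and Slc39a3, had log2 fold changes of -0.09, -0.02 and -0.15. The median of the importers was -0.02.

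Values of the metallothioneins lay on both sides of 0 in hippocampus. Mt3, the neuronal form, stood at 316 to 338 CPM in WT and 303 to 349 CPM in HET hippocampus. Mt1 had a log2 fold change of -0.11 (SE 0.05) and Mt2 of 0.19 (SE 0.07, adjusted p 0.195), and Mtf1, their activator, of -0.12 (SE 0.07). Mt1 stood at 179, 182 and 196 CPM in WT and 172, 171 and 169.8 CPM in HET. In the third list Slc17a7, the glutamate transporter of the vesicles that hold Slc30a3, stood at 1913 to 2245 CPM in WT and 1828 to 2032 CPM in HET, and the median of the list was 0.06. P2rx3 had 0.66 (SE 0.22, adjusted p 0.181) at 1.86 and 2.92 CPM, and Ap3s2 and Ap3d1, subunits of AP-3, had -0.17 and -0.13. Mt2 and P2rx3 lay higher and Mt1, Ap3s2 and Ap3d1 lower in HET hippocampus without overlap, where 9.11% and 11.7% of all genes did. In MGE and in cortex edgeR called 0 genes of these lists between genotypes, where it called 0.0479% and 0% of all genes. At an unadjusted p under 0.05 there were 2 (Mt3 and Ap3s1) and 0, against 4.51% and 7.89% of all genes. DESeq2 and limma-voom also called 0 in both, where DESeq2 called 33 and 11 genes in all and limma-voom 7 and 0.

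**Figure D5:**
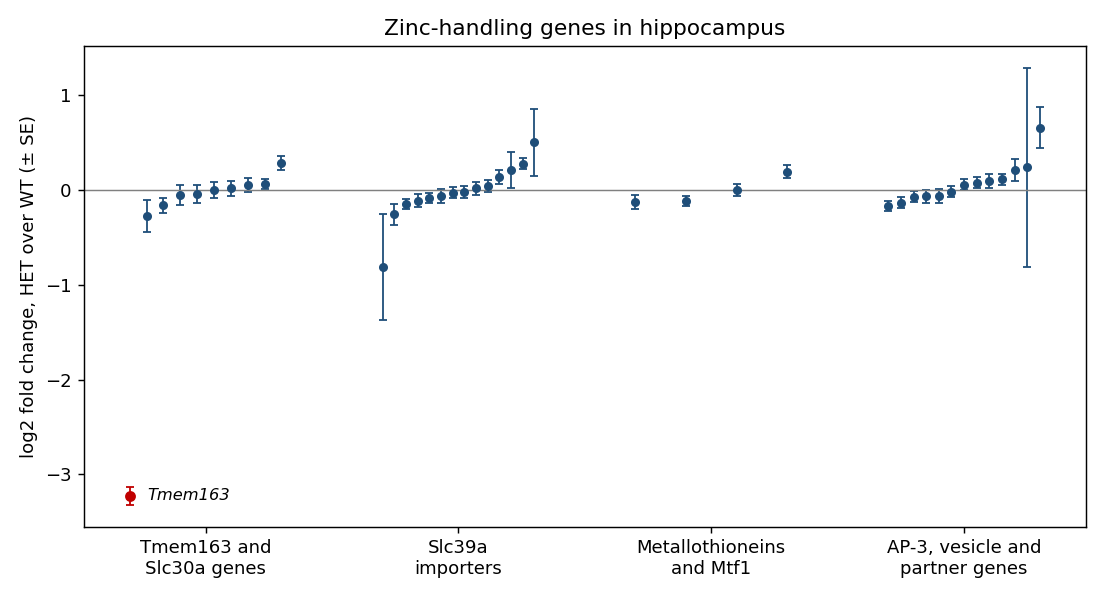
Log2 fold change of HET over WT in hippocampus (± SE) of Tmem163 (red) and, in blue, the tested Slc30a genes with Slc30a2, the Slc39a importers, metallothioneins with Mtf1, and genes of AP-3, vesicles and P2X receptors. Tmem163 lies at -3.23, and the next lowest value is -0.81 with a wide error.

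Between tissues these lists were not uniform. In WT libraries Mt1, Mt2, Mt3 and Mtf1 were called higher in hippocampus than in cortex, where edgeR called 40.2% of all genes higher and 40.7% lower. Mt3 stood at 42.9 CPM in cortex and 328 CPM in hippocampus (log2 fold change 2.99, SE 0.10, edgeR adjusted p 6.50e-11), and Mt1 at 33.5 and 186 CPM. Slc30a2, on the same list, had at most 8 counts in an embryonic library. It passed the filter only through its hippocampus counts, so its call there is not counted. Of the 14 importers 5 were higher and 4 lower, a split near that of all genes. Slc39a12, an importer, stood at 1.18 CPM in cortex and 42.6 CPM in hippocampus. Of the 13 genes of the third list 9 were higher and 3 lower, with Slc17a7 at 67.0 and 2045 CPM.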

How the data were processed

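Levels were analysed from the raw counts per gene symbol that the authors deposited for 18 poly(A)-selected mouse libraries (NEBNext Ultra RNA kit, per the labels). The submitters' processing notes name the build mm10 and the tools FastQC, Trimmomatic, SAMtools, TopHat2 2.1.1 and DESeq2. Which program, annotation and strand setting made the counts was not given in the sources used here. Groups, and the pairing of columns with samples, follow the labels.

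Counts were filtered with filterByExpr (minimum count 10, minimum total 15), scaled by TMM and tested with the robust quasi-likelihood test of edgeR 4.0.16 (R 4.3.3), with Benjamini-Hochberg adjustment over all genes tested and a threshold of 0.05. Each tissue was fitted alone for genotype. Differences between tissues in the genotype effect used one fit of all 18 libraries, and tissue comparisons used the 9 libraries of a genotype. The SE of a log2 fold change is its size divided by the square root of F. Printed CPM are scaled over all 18 libraries, and likeness used log2 CPM with a prior count of 2. Replicates of a group differed by 6.00 to 106 times counting noise, so no library was a copy of another. In all, 27 lines carry a calendar date as symbol and were kept in totals and tests. The procedure was tested on simulated data.

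The members and all gene lists were chosen with earlier results of these data known. All members are named. From other lists the rule named genes past the threshold (at most 4 a list by lowest p) and up to 4 importers and metallothionein-list genes by mean CPM, the 5 genes most like Tmem163 in each set without predicted gene names, and 5 neighbours on each side. Slc39a2, Slc39a11, Slc39a12, Slc17a7, P2rx3, Ap3s2, Ap3d1 and Ap3s1 were named after their values were seen. Gene positions and exon lengths are from GENCODE M21 (mm10) and sequences from RefSeq (GRCm38.p6). Alternatives were RLE scaling, no filter, DESeq2 1.42.0, limma-voom (limma 3.58.1), the replicate number as a block, one fit of all libraries or only the tissues compared, and leaving out each library.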

Additional observations from a re-analysis of the deposited data

Results flagged for a closer look

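For Tmem163, the log2 fold change of HET over WT in hippocampus minus that in cortex was -3.32, and minus that in MGE it was -3.36, each from the model of all 18 libraries. Both stand here because the genotype effect of the gene differed between tissues. The gene was chosen for this difference, so no p is given. With single libraries left out and under the other scalings, filters and tools, the first ran from -3.50 to -3.20 and the second from -3.58 to -3.09.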

How the results depend on the processing

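All 172 recomputed log2 fold changes of Tmem163 kept their sign, or lay within the spread between replicates of the value given (genotype in cortex, -0.04 to 0.25, and in MGE, -0.15 to 0.36). Of the Slc30a log2 fold changes, 1335 kept their call, 30 gained and 11 lost one, and 0 called values changed sign. The number of Slc30a genes called for genotype in MGE was 1 in place of 0 with DESeq2, with one fit of all libraries and without MGE WT 1 (0 to 1 with libraries left out), and the same 1 in place of 0 for hippocampus against MGE with DESeq2 and without MGE WT 1 (0 to 1). It was 1 in place of 0 without Cortex HET 3 for genotype in cortex (0 to 1) and for hippocampus against cortex (0 to 1). Between HET MGE and cortex it was 2 in place of 1 with DESeq2, and 1 to 3 with libraries left out (2 without Cortex HET 1, 3 without Cortex HET 3). The cause was not tested.

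Over all genes, genotype calls in MGE numbered 7. They were 33 with DESeq2, 27 without MGE WT 1 and 11 without MGE HET 1 or HET 2. With one fit of all libraries they were 5, of which 0 were among the 7. In cortex they numbered 0, and 1 with no filter, 11 with DESeq2, 4 with one fit, 1 without Cortex WT 1 and 4598 without Cortex HET 3. In hippocampus they numbered 164, and 291 with no filter, 445 with DESeq2, 11 with one fit, 292 without WT 1, 37 without WT 2 and 23 without HET 3. For hippocampus against cortex they numbered 2, and 77 with DESeq2 and 1 to 2791 with libraries left out (2791 without Cortex HET 3). For hippocampus against MGE they numbered 1, and 38 with DESeq2, 3 with limma-voom and 1 to 12 with libraries left out (12 without MGE HET 2).

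Same-numbered WT and HET libraries of a tissue did not vary together (r -0.13 to -0.01 in MGE, -0.25 to 0.17 in cortex and -0.09 to 0.08 in hippocampus). With 3 libraries per group these values cannot exclude a shared litter or batch. Pairing of MGE with cortex libraries was not examined. With the replicate block, 80 in place of 164 genes were called in hippocampus (66 shared), and 2 in place of 1 Slc30a genes between HET MGE and cortex (Slc30a4 at -0.34, adjusted p 0.0475). In WT hippocampus against MGE, Slc30a6 had an adjusted p of 0.0455 under the block. Counts of 8 to 39 limit Slc30a3 in embryonic tissue and counts of 26 to 72 limit Tmem163 in MGE.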
